A study of Mus musculus with 8 samples.

Results

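The chemokine genes Cxcl1, Cxcl2, Cxcl3, Cxcl5, Ppbp and Pf4 and the receptor genes Cxcr2 and Cxcr4 were taken by gene symbol from the count tables of 8 single-cell libraries. They are 8 of 21742 non-mitochondrial genes named in these tables, and all 8 were found. The libraries held cells positive for CD45, the surface protein of blood-derived cells, sorted from wounds of the back skin of male C57BL/6J mice. The diabetic group had received streptozotocin (STZ), a toxin of the insulin-producing beta cells, at 120 mg/kg at 4 weeks of age, and the control group was wounded in the same way. No other allele or agent is named for either group. Wounds were sampled on days 1, 3, 5 and 7, and those of several mice were pooled into 1 library per group and day. A difference between the groups within a day therefore had no replicate and was given no test, and the intervals printed with such ratios cover counting error only.

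CXC chemokines are small secreted proteins that guide leukocytes along their gradients. CXCL1, CXCL2, CXCL3, CXCL5 and the processed form of the Ppbp product (CXCL7) carry the ELR motif and act on CXCR2, the main chemokine receptor by which neutrophils enter inflamed skin. Pf4 encodes CXCL4, which lacks this motif and does not act as a CXCR2 ligand of that kind, and Ppbp and Pf4 are best known as products of megakaryocytes and platelets. CXCR4, the receptor of CXCL12, retains neutrophils in bone marrow, and ageing neutrophils are known to lose CXCR2 and gain CXCR4. Stimuli such as interleukin 1 and TNF are known to induce Cxcl1, Cxcl2 and Cxcl3 through NF-kappaB.

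The 6 ligand genes lie within 147 kb of mouse chromosome 5 (GRCm38, GENCODE M21), all on the plus strand, in the order Cxcl5 (chr5:90759360-90761624), Ppbp (chr5:90768518-90770063), Pf4 (chr5:90772435-90773383), Cxcl3 (chr5:90786103-90789600), Cxcl1 (chr5:90891241-90893115) and Cxcl2 (chr5:90903871-90905938). The receptor genes lie on chromosome 1, Cxcr2 on the plus strand (chr1:74153989-74161246) and Cxcr4 on the minus strand (chr1:128588199-128592293). RefSeq promoter sequences of GRCm38.p6 were found for 7 of the 8 genes, Cxcl5 being the exception. They were searched on both strands, over the 250 bases before the start, for GGG, any 2 bases and TTTCC, a form of the NF-kappaB site. Cxcl1, Cxcl2 and Cxcl3 held it, and no match to these letters was found in this window for Ppbp, Pf4, Cxcr2 and Cxcr4. Of 32851 promoters, 1.41% held a match, and a match is a description of the sequence only. The 80 bases from 110 to 31 before the start are shown for the 3 genes with a match, because their levels are the ones followed most closely below. They are the plus strand of chr5:90891135-90891214 (Cxcl1), chr5:90903789-90903868 (Cxcl2) and chr5:90785991-90786070 (Cxcl3), with the matches in capitals.
Cxcl1: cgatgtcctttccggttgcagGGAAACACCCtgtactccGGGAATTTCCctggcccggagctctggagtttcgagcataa
Cxcl2: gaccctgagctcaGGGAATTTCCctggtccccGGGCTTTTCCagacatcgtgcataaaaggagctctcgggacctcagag
Cxcl3: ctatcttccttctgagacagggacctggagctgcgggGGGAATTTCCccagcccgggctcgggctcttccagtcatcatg
All 3 carried the same run GGGAATTTCC, which began 71 bases before the start in Cxcl1, 97 in Cxcl2 and 73 in Cxcl3. Cxcl1 carried another match on the minus strand, GGGTGTTTCC, printed above as its reverse complement GGAAACACCC, and Cxcl2 carried GGGCTTTTCC 78 bases before the start.

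After filtering, 35158 cells remained, 3266 to 5436 per library, with 18814802 to 32956113 UMIs per library. The gene of CD45, Ptprc, stood at 532 to 922 CPM in each library (CPM is the number of UMIs of a gene per 1000000 UMIs). Clusters were named from marker genes that include none of the 8 genes, and gave 13853 neutrophil-like, 6043 monocyte-like, 5668 macrophage-like, 2842 dendritic-like and 2455 T cell-like cells, smaller fibroblast-like, mast cell-like, NK cell-like and osteoclast-like classes, and 3155 unnamed cells. Neutrophil-like cells were 51.4%, 49.6%, 46.2% and 21.2% of the diabetic libraries on days 1, 3, 5 and 7, and 60.0%, 41.9%, 8.36% and 23.0% of the control libraries. Macrophage-like cells were 1.01%, 8.26%, 3.66% and 25.7% of the diabetic libraries, against 1.31%, 7.20%, 42.4% and 49.3% of the control libraries. The control library of day 5 stood apart, with the fewest neutrophil-like cells, the most UMIs per cell (median 8234 against 2575 to 5219 in the others) and the most barcodes removed (28.6%). A level over all cells moves with these shares, so that in such sums fewer cells of a type and less RNA per cell cannot be told apart. Levels are CPM out of the non-mitochondrial UMIs of all cells of a library or of a cell class. T cell-like cells are given beside the other classes as a class not known for making the neutrophil attractants.

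Cxcl2, a CXCR2 ligand made by activated myeloid cells, was highest on day 1 in both groups. Over all cells it stood at 31648, 18277, 20291 and 12221 CPM in the diabetic group on days 1, 3, 5 and 7, and at 40952, 14973, 8577 and 9991 in the control group. The diabetic library was below the control library on day 1 and above it on the other 3 days, and the ranges of the groups overlapped. The ratio of diabetic to control was 0.773 (95% interval 0.770 to 0.775) on day 1, 1.22 on day 3, 2.37 (2.35 to 2.38) on day 5 and 1.22 on day 7.

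Neutrophil-like cells, which held 22.2% of all UMIs, held 52.1% of those of Cxcl2. Their median over the 8 libraries was 34365 CPM, above monocyte-like cells (17415) in 8 of 8 libraries, and monocyte-like cells were above macrophage-like cells (12103) in 7 of 8. Within neutrophil-like cells the level was 51175, 34613, 46118 and 30544 CPM in the diabetic libraries and 68182, 34117, 19346 and 19198 in the control libraries. The diabetic libraries were above the control libraries on days 5 and 7 and below on day 1, and on day 3 the ratio of 1.01 turned below 1 when clusters were cut more finely. T cell-like cells ranged from 3206 to 10593 CPM, a median of 0.273 of the level of their own library, and a Cxcl2 UMI was counted in 99.1% of all cells. The part of free RNA, which is RNA released by other cells, in these values was not tested.

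Cxcl3, a close relative of Cxcl2 and likewise a CXCR2 ligand, showed the highest all-cell ratio of the 3 ligands with the shared promoter run. Over all cells it stood at 2935, 1225, 1600.5 and 776 CPM in the diabetic group and at 4431, 420, 311 and 373 in the control group. The control group was higher on day 1, and from day 3 on every diabetic library was above every control library of those days. The ratio was 0.663 on day 1, 2.92 (2.85 to 2.99) on day 3, 5.15 (5.03 to 5.27) on day 5 and 2.08 (2.03 to 2.13) on day 7.

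The same order of the groups was seen for Cxcl3 within each main myeloid class. Neutrophil-like cells held 45.7% of its UMIs and monocyte-like cells 43.2%. Their medians, 1778 and 1944 CPM, were not separable, since monocyte-like cells were higher in 3 of 8 libraries, whereas both lay above macrophage-like cells (516). In neutrophil-like cells the ratio of diabetic to control was 0.617, 1.74, 5.04 and 1.84 on days 1, 3, 5 and 7, in monocyte-like cells 0.772, 4.15, 2.31 and 2.42, and in macrophage-like cells 0.538, 2.05, 1.75 and 1.69. All 3 classes were thus below 1 on day 1 and above 1 on days 3, 5 and 7. The monocyte-like class was made of 3 clusters, and the largest of them, MON-2-like (4723 cells), made up 65.6%, 90.8%, 89.7% and 84.8% of the class in the diabetic libraries and 74.2%, 86.0%, 75.2% and 68.9% in the control libraries. Inside this cluster Cxcl3 stood at 2868, 1714, 2255 and 3238 CPM in the diabetic libraries and at 4361, 410, 940 and 1632 in the control libraries, which is the same order of the groups on each day. T cell-like cells showed ratios of 0.384, 4.73, 1.11 and 2.08 at levels of 62.0 to 1532 CPM, and the part of free RNA in the ratios of the other classes was not tested.

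Cxcl1, the CXCR2 ligand also known as KC, varied less over days than Cxcl2 and Cxcl3 when all cells were summed. It stood at 2859, 2954, 2787 and 3448 CPM in the diabetic group and at 3215, 2470, 3617 and 2486 in the control group, ranges that overlapped. The ratio was 0.889 on day 1, 1.20 on day 3, 0.770 on day 5 and 1.39 on day 7, so its direction turned from one day to the next.

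By class, Cxcl1 was highest in monocyte-like cells, with a median of 5981 CPM, then in macrophage-like cells (3603) and neutrophil-like cells (1824), and each of these steps held in 8 of 8 libraries. Monocyte-like cells held 43.3% of its UMIs and macrophage-like cells 33.5%. T cell-like cells stood at 350 to 1516. Within neutrophil-like cells the level was 1076, 1394, 2260 and 4023 in the diabetic libraries and 1542, 1436, 2992 and 2105 in the control libraries. On these class totals each diabetic day stood above the day before it. TMM, the scaling that edgeR used in the tests below, had factors of 0.705 and 0.989 for diabetic days 1 and 3. Under them day 3 would lie below day 1. The ratio was 0.697 on day 1, 0.971 on day 3, 0.755 on day 5 and 1.91 (1.86 to 1.96) on day 7. That of day 5 turned above 1 when each cell was named singly (log2 ratio 0.15). It would also turn under the TMM factors of day 5, 0.886 in the diabetic and 1.38 in the control library. Monocyte-like cells of day 7 held the highest values of any main class, 11070.5 CPM in the diabetic library and 7673 in the control library, the latter from 61 cells.

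**Figure D1:**
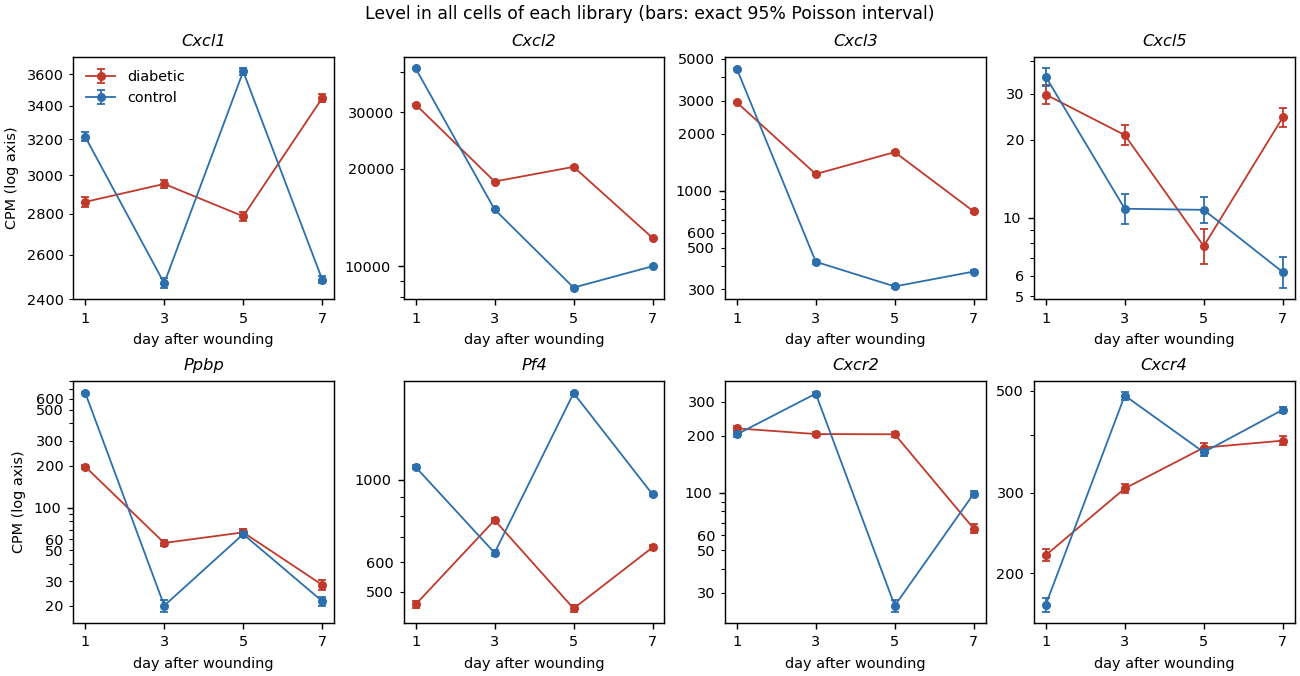
Level of each gene over all cells (CPM, log axis) against day after wounding, for the diabetic and the control library of each day, with exact 95% Poisson intervals. Cxcl2, Cxcl3 and Ppbp were highest on day 1 in both groups, and Cxcr2 of the control group was lowest on day 5 at 25.7 CPM.

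Cxcl5, a CXCR2 ligand best known from epithelial and stromal cells, was rare among these sorted cells. Only 3161 UMIs were counted, in 569 cells (1.62%), and 48.7% of them lay in 10 cells. The level over all cells was 29.8, 20.8, 7.78 and 24.3 CPM in the diabetic libraries and 34.9, 10.8, 10.7 and 6.19 in the control libraries. These levels followed a few cells: 1 fibroblast-like cell of the diabetic library of day 1 held 383 UMIs, and the 59 fibroblast-like cells held 30.2% of all Cxcl5 UMIs. Without fibroblast-like cells the diabetic level of day 1 was 9.68 in place of 29.8, that of diabetic day 7 was 9.16 in place of 24.3 and that of control day 3 was 2.32 in place of 10.8.

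Fibroblast marker genes summed to 13.4 to 1068 CPM in the libraries, with the highest values on day 7 (596 in the diabetic and 1068 in the control library). Monocyte-like cells held 42.3% of the Cxcl5 UMIs, and in the diabetic library of day 3 a single monocyte-like cell held 285 of the class's 430 UMIs. Macrophage-like cells of control day 1 stood at 266 CPM, but from 58 cells, and those of diabetic day 1 held no Cxcl5 UMI in 48 cells. The all-cell ratios of 0.854, 1.92, 0.725 and 3.93 on days 1, 3, 5 and 7 are therefore ratios of few cells, and doublets, for which no caller was run, were not tested.

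Ppbp, the precursor of CXCL7, was highest on day 1, above all in the control library. Over all cells it stood at 196, 56.2, 66.9 and 28.3 CPM in the diabetic group and at 661, 20.1, 64.9 and 21.6 in the control group. Day 1 was the highest day in both groups, and the ratio was 0.297 (0.287 to 0.308) on day 1, 2.80 (2.50 to 3.13) on day 3, 1.03 on day 5 and 1.31 on day 7. The interval of day 5, 0.961 to 1.10, included 1.

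The Ppbp UMIs were unevenly spread, with 55.7% of them in 100 cells and 13.1% in 10 cells, so that a class level is not that of most of its cells. Monocyte-like cells held 76.3% of them, at 357, 132, 165 and 45.2 CPM in the diabetic libraries and 1185, 34.8, 80.1 and 6.94 in the control libraries. The ratio within them was 0.301 on day 1 and 3.80, 2.06 and 6.51 on the later days, the last from 4 UMIs in 61 control cells, and that of day 5 turned below 1 when each cell was named singly (log2 ratio −0.32). Macrophage-like cells had a lower median (57.9 against 106), but were lower than monocyte-like cells in only 3 of 8 libraries. Their ratios were 0.0446 on day 1, from 7 diabetic UMIs, and 0.573, 2.16 and 1.90 on days 3, 5 and 7, so that on day 3 the 2 classes had opposite directions, and that of day 3 turned with single naming (log2 ratio 1.34). T cell-like cells ranged from 3.97 to 246 CPM and were highest in the same library, control day 1. With each cell thinned to 1000 UMIs, 21.2% of monocyte-like cells of control day 1 had a Ppbp UMI against 8.0% of T cell-like cells, and in the diabetic library of day 1 the shares were 7.8% and 2.6%.

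The platelet marker genes summed to 3.33 to 4.25 CPM in the 8 libraries, with Gp9 at 0 in 7 of them, and to 3.88 CPM in control day 1, where Ppbp was highest. A platelet gene was counted in 1.11% of monocyte-like cells with Ppbp and in 0.923% of those without it.

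Pf4, which encodes platelet factor 4 (CXCL4), was highest in macrophage-like cells. Over all cells it stood at 462, 778, 451 and 658 CPM in the diabetic group and at 1081, 636, 1707 and 912 in the control group. The control library was higher on days 1, 5 and 7, and the ratio was 0.428 on day 1, 1.22 on day 3, 0.264 (0.258 to 0.270) on day 5 and 0.721 on day 7. Control day 5 was the library in which macrophage-like cells were 42.4% of cells, against 3.66% in the diabetic library of that day.

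Macrophage-like cells held 51.6% of the Pf4 UMIs, and their median of 1825 CPM was above that of monocyte-like cells (881) in 8 of 8 libraries. Inside macrophage-like cells the ratio was 0.318 on day 1, from 48 diabetic and 58 control cells, and 0.837, 1.14 and 0.918 on days 3, 5 and 7. Those of days 3 and 5 turned when each cell was named singly (log2 ratios of 0.068 and −0.31). Monocyte-like cells held 29.9% of the Pf4 UMIs, and their ratio was 0.437, 1.43, 0.314 and 1.14 on days 1, 3, 5 and 7, so that day 5 was below 1 inside this class and above 1 inside macrophage-like cells. On day 1 the MAC-3-like cluster, led by Gpnmb and Selenop, made up 46.6% of the control macrophage-like cells. The MAC-2-like cluster led by Retnla and Ccl8 (999 cells in all) made up 54.2% of the diabetic ones. Another MAC-2-like cluster, led by Igf1 and Gdf15 (3136 cells in all), is not part of these values. Inside the Retnla-led MAC-2-like cluster on day 1 Pf4 stood at 1297 CPM in 26 diabetic cells and 3445 CPM in 24 control cells. In neutrophil-like cells Pf4 stood at 84.1, 222, 208 and 774 CPM in the diabetic group and at 228, 165, 744 and 635 in the control group, ranges that overlapped the T cell-like one of 127 to 1153, and the order of the groups on day 7 turned with single naming (log2 ratio −0.90). The T cell-like ratio of day 5, 0.110, lay below the neutrophil-like ratio of that day, 0.279, and both had the direction of the all-cell ratio. Whether the Pf4 UMIs of neutrophil-like cells are free RNA was not tested.

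**Figure D2:**
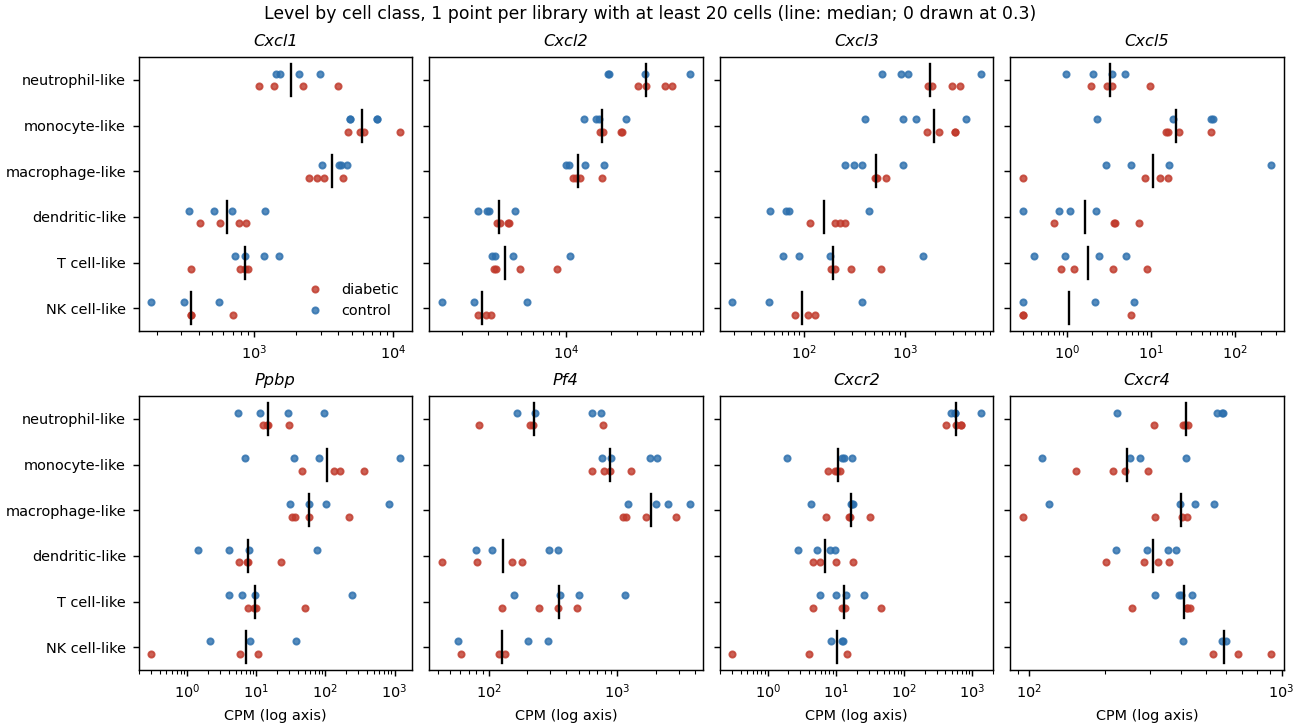
Level of each gene by cell class (CPM, log axis), 1 point per library with at least 20 cells of the class, coloured by group, with the median as a line and a level of 0 drawn at 0.3. Every point of Cxcr2 in the neutrophil-like row lay above those of the other rows drawn, Cxcl1 was highest in the monocyte-like row and Pf4 in the macrophage-like row.

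Cxcr2, the receptor of the ELR chemokines, marked neutrophil-like cells. They held 94.5% of its UMIs, and their median of 571 CPM lay above that of macrophage-like cells (16.4) in 8 of 8 libraries. T cell-like cells stood at 4.66 to 45.8. With cells thinned to 1000 UMIs, 28.5% to 57.4% of neutrophil-like cells and 0.3% to 2.2% of T cell-like cells had a Cxcr2 UMI.

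Over all cells Cxcr2 stood at 218, 204, 203 and 65.0 CPM in the diabetic group and at 203, 332, 25.7 and 99.1 in the control group. The lowest level, control day 5, was in the library with the smallest share of neutrophil-like cells (8.36%), but from day 1 to day 3 of the control group that share was lower (60.0% and 41.9%) while the level was higher. The ratio was 1.08, 0.614, 7.92 (7.33 to 8.57) and 0.656 on days 1, 3, 5 and 7. Within neutrophil-like cells the ratio of day 5 was 1.21 (1.11 to 1.31), from 1931 diabetic and 273 control cells, and it was 1.18 on day 1, 0.516 on day 3 and 0.747 on day 7. The direction of day 5 turned when each cell was named singly (log2 ratio −0.24), and that of day 7 with finer clusters (0.13). The level in these cells was 578, 683, 682 and 415 in the diabetic libraries and 490.5, 1324, 564 and 555 in the control libraries, so that control day 3 stood apart as the highest.

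Cxcr4, the CXCL12 receptor, was spread over all classes. Over all cells it stood at 219, 306, 376 and 389 CPM in the diabetic group, each day above the day before it, and at 171, 488, 367 and 454 in the control group. The TMM factors of diabetic days 5 and 7 were 1.002 and 1.155, and under them day 7 would lie below day 5. Day 1 was the lowest in both groups, and the ratio was 1.28 on day 1, 0.628 on day 3, 1.02 (0.994 to 1.05) on day 5 and 0.857 on day 7. NK cell-like cells had the highest median, 590 CPM over 6 libraries, above neutrophil-like cells in 5 of 6, while neutrophil-like (419), T cell-like (410) and macrophage-like cells (399) were neighbours with overlapping ranges.

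Within neutrophil-like cells Cxcr4 stood at 312, 413, 424 and 406 CPM in the diabetic group and at 222, 589, 582 and 555 in the control group. The ratio was 1.40 (1.32 to 1.50) on day 1 and 0.702, 0.729 and 0.733 on days 3, 5 and 7. These ratios are on class totals. The TMM factors of day 5 were 0.886 in the diabetic and 1.38 in the control library, and under them the ratio of day 5 would turn above 1. T cell-like cells, at 255 to 442 CPM, lay in the same range as the other classes, and no class here is free of the gene.

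**Figure D3:**
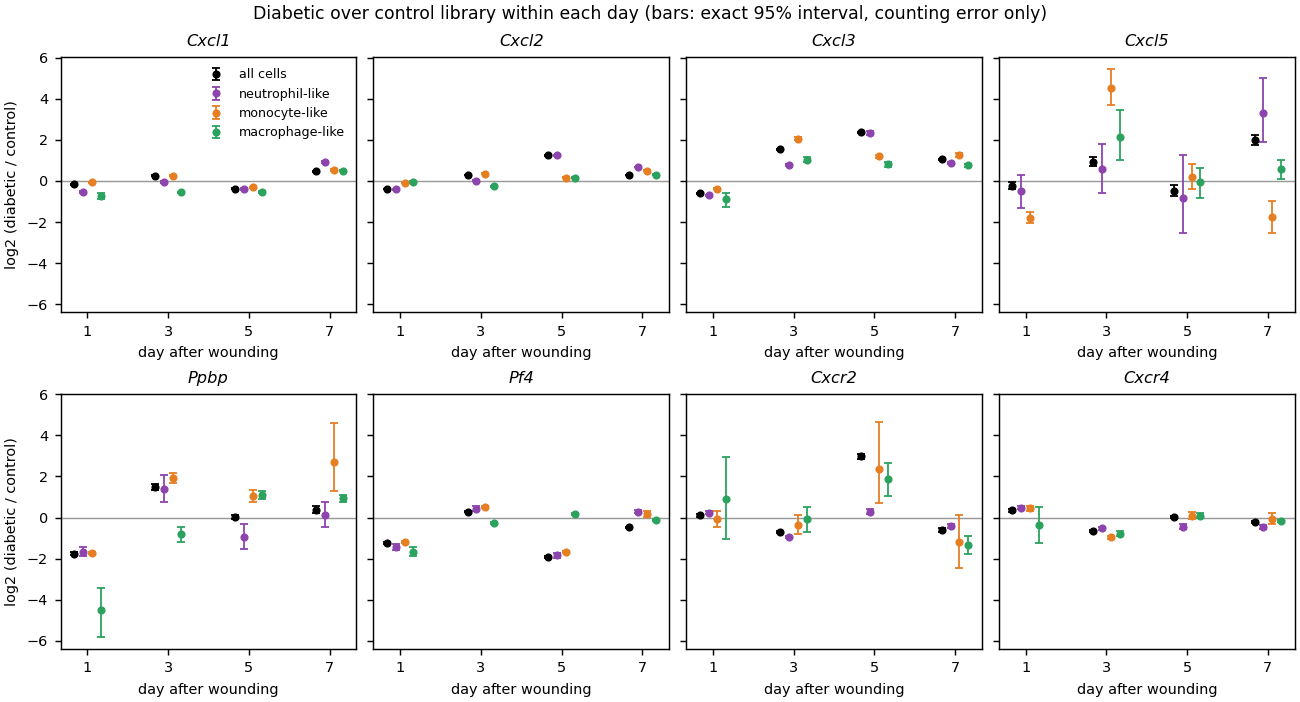
log2 ratio of the diabetic over the control library within each day, over all cells and within the neutrophil-like, monocyte-like and macrophage-like classes, with exact 95% intervals of counting error. Points above 0 are higher in the diabetic library, and Cxcl3 lay below 0 on day 1 and above 0 on days 3, 5 and 7 in all 4 sets of cells.

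The 8 genes were also set out over the 4 clusters that make up the neutrophil-like class. The clusters are called NEU-1-like (4946 cells, with Csf3r and Lrg1, and immunoglobulin transcripts such as Igkc and Ighg2b among the leading genes), NEU-2-like (3646 cells, led by Il23a, Il1a, Ccl3 and Tnf, inflammatory genes, and holding no class marker among its leading 10), NEU-3-like (4196 cells, led by the granule genes Ngp, Retnlg and Lcn2) and NEU-4-like (1065 cells, led by interferon-induced genes such as Rsad2 and Ifit1). Since the cells were clustered on their own expression, these levels are a description without a test, although the 8 genes were left out of the genes used for clustering. With finer clusters 2083 cells led by Il23a, Tnf and Il1a stayed unnamed.

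NEU-2-like cells were most often the highest for Cxcl1, Cxcl2 and Cxcl3 and were the lowest for Cxcr2. Cxcl3 was highest there in 8 of 8 libraries (median 3792 CPM), Cxcl2 in 7 of 8 (56284) and Cxcl1 in 5 of 8 (3494). For the other ligands NEU-2-like cells were highest in 4 of 8 libraries (Cxcl5), 3 of 8 (Pf4) and 2 of 8 (Ppbp), and lowest in 1, 2 and 2. Cxcr2 was lowest there in 8 of 8 libraries, with a median of 224 against 912 in NEU-1-like, 827 in NEU-3-like and 650 in NEU-4-like cells. Cxcr4 was highest in NEU-1-like cells in 8 of 8 libraries (598) and lowest in NEU-2-like cells in 7 of 8 (274).

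The groups and the days held these clusters in different shares, which bears on each neutrophil-like ratio above and on each neutrophil-like slope below. The part of these shares in the slopes was not tested. NEU-1-like cells were 8.91%, 31.3%, 24.9% and 61.1% of neutrophil-like cells in the diabetic group on days 1, 3, 5 and 7, and 6.87%, 76.9%, 76.2% and 92.6% in the control group. The largest cluster was NEU-3-like in the diabetic library of day 3 (37.0%) and NEU-2-like in that of day 5 (41.6%). Inside NEU-1-like cells Cxcl3 stood at 1689, 941, 1376 and 1587 CPM in the diabetic group and at 2729, 737, 454 and 830 in the control group, the same order of the groups on each day as in the whole class. Cxcr2 inside NEU-1-like cells stood at 1268, 831, 993 and 668 in the diabetic group and at 1232, 1424, 627 and 598 in the control group, where the diabetic library was the higher one on day 7, unlike in the class as a whole.

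**Figure D4:**
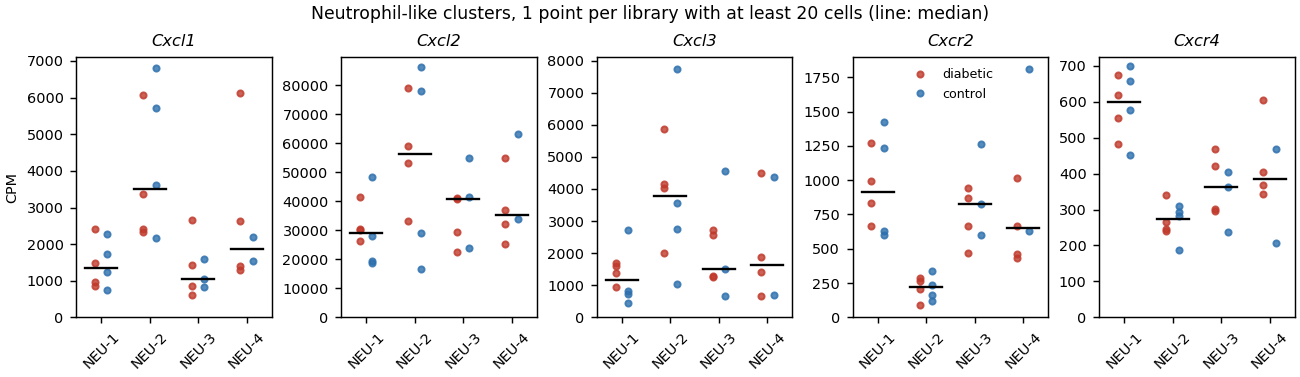
Level of 5 of the 8 genes (CPM, linear axes from 0) in the NEU-1-like to NEU-4-like clusters, 1 point per library with at least 20 cells of the cluster, with the median as a line. NEU-2-like cells were highest for Cxcl3 and lowest for Cxcr2 in 8 of 8 libraries.

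Whether the diabetic group differed from the control group over all 4 days was tested with edgeR's quasi-likelihood test on UMIs summed per library, with the day as a factor and Benjamini-Hochberg adjustment over all genes tested. None of the 8 genes passed an adjusted p of 0.05 in any of the 4 sums. The background was 0% of 13857 genes over all cells, 0.0186% of 10730 in neutrophil-like, 0.0469% of 10656 in monocyte-like and 0.0298% of 10052 in macrophage-like cells. Over all cells 1518 genes, but none of the 8, had an unadjusted p under 0.05, and DESeq2 called 83 genes, with none of the 8 among its calls in any sum, although it gave no adjusted p for 1 of the 8 in neutrophil-like, 2 in monocyte-like and 1 in macrophage-like cells. The median difference (log2, diabetic minus control) of the 8 genes was 0.22 over all cells, 0.04 in neutrophil-like, 0.10 in monocyte-like and −0.16 in macrophage-like cells, against −0.0041, −0.0066, 0.0012 and −0.0068 for all genes tested. Scaling by library totals in place of TMM, edgeR's default scaling, moved the median of all genes in neutrophil-like cells to −0.15 and turned the difference of Cxcl1 there from 0.15 to −0.01.

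Cxcl3 had the largest positive difference of the 8 in every sum. Its log2 difference was 1.15 (SE 0.51, edgeR adjusted p = 0.45) over all cells, 0.97 (0.52, 0.55) in neutrophil-like, 1.10 (0.29, 0.29) in monocyte-like and 0.50 (0.24, 0.72) in macrophage-like cells. In monocyte-like cells it was the only one of the 8 genes with an unadjusted p under 0.05 (0.00305). Without day 1 its difference there was 1.54 with an edgeR adjusted p of 0.0122, a choice of day that removes the only ratio below 1, and without day 3, 5 or 7 it was 0.76, 1.04 and 1.00 with adjusted p of 0.45, 0.53 and 0.73. Pf4 had the largest negative difference over all cells, −0.80 (0.35, 0.45).

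The differences of the other genes had no common direction. Over all cells they were 0.58 for Cxcl5, 0.39 for Cxcl2, 0.33 for Cxcr2, 0.10 for Ppbp, 0.08 for Cxcl1 and −0.09 for Cxcr4. In neutrophil-like cells they were 0.70 for Cxcl5, 0.53 for Cxcl2, 0.15 for Cxcl1, −0.06 for Cxcr2, −0.07 for Cxcr4, −0.23 for Ppbp and −0.48 for Pf4. Pf4 was below 0 in the other classes as well. In monocyte-like cells Pf4 had a difference of −0.50, against 0.66 for Ppbp, 0.28 for Cxcl2, 0.15 for Cxcl1, 0.05 for Cxcl5, 0.03 for Cxcr2 and −0.08 for Cxcr4. In macrophage-like cells Pf4 had −0.42, Cxcl1 −0.33, Cxcr4 −0.29, Ppbp −0.20, Cxcl5 −0.12, Cxcr2 0.03 and Cxcl2 0.04.

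Whether levels moved over days 1 to 7 was tested as a slope per day shared by both groups. Over all cells 3 of the 8 genes fell, against 10.3% of 13332 genes called, of which 917 fell and 461 rose. Ppbp fell by 0.69 per day on the log2 scale (SE 0.16, edgeR adjusted p = 0.034), Cxcl3 fell by 0.54 (0.13, 0.038) and Cxcl2 fell by 0.36 (0.08, 0.031). The slope of Cxcr2 was −0.35 (adjusted p = 0.12), that of Cxcl5 −0.31 (0.073), that of Cxcr4 0.08 (0.27), that of Cxcl1 −0.07 (0.26) and that of Pf4 −0.05 (0.66), none of which passed in edgeR. Each of the 3 calls was lost without day 1 (adjusted p of 0.67 for Cxcl2 and 0.90 for Ppbp) and without day 7, that of Ppbp also without day 5 (0.0515), and that of Cxcl2 under DESeq2 (0.127), which called Cxcl5 instead (−0.32, 0.0155) and 2776 of 14950 genes in all. Nearly every gene lost its call without either day, since 0 of 13818 genes were called without day 1 and 1 of 13281 without day 7. Without day 1 the slopes were −0.17 for Ppbp, −0.13 for Cxcl3 and −0.18 for Cxcl2, and without day 7 they were −0.74, −0.71 and −0.46.

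In neutrophil-like cells 5 of the 8 genes passed, but so did 43.5% of 10126 genes, so the count is near its background. The fits with edgeR gave slopes of −0.51 (SE 0.12, adjusted p = 0.0056) for Ppbp, −0.48 (0.12, 0.0064) for Cxcl3, −0.38 (0.10, 0.0079) for Cxcl2 and −0.22 (0.08, 0.033) for Cxcr2, which fell, and of 0.23 (0.07, 0.023) for Pf4, which rose. Those of Cxcl1 (0.06), Cxcl5 (−0.16) and Cxcr4 (−0.04) did not pass. The slope of Cxcr2 turned to 0.050 when each cell was named singly. Scaling by library totals in place of TMM moved the median slope of all genes in these cells from 0.02 to 0.17 per day and the calls from 2261 up and 2141 down to 4850 up and 513 down. Under it Cxcl2, Cxcl3 and Ppbp still fell (−0.21, −0.31 and −0.33) and Pf4 rose (0.41), the slope of Cxcr2 did not pass (−0.07, adjusted p = 0.43), Cxcl1 rose (0.23, adjusted p = 0.0040) and Cxcr4 turned to 0.12 without passing in either. Over all cells the totals moved the median slope of all genes from 0.02 to 0.09 and turned the slopes of Cxcl1 and Pf4, neither of which passed, from below to above 0.

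In neutrophil-like cells the calls of Cxcl2, Cxcl3, Ppbp and Pf4 were lost without day 1 and without day 7, and that of Cxcr2 without day 7 and with finer clusters (adjusted p = 0.084). In these smaller fits the calls over all genes went from 4402 of 10126 to 645 of 10434 without day 1 and to 173 of 10296 without day 7. The slope of Ppbp was −0.04 without day 1 and −0.56 without day 7, and those of Cxcl3 were −0.17 and −0.61, of Cxcl2 −0.26 and −0.41, and of Pf4 0.35 and 0.19. With each cell named singly from its marker score only Ppbp passed (−0.60, edgeR adjusted p = 0.014), against 787 of 8523 genes. In monocyte-like cells none of the 8 passed in edgeR, against 0.694% of 10228 genes. There 2 of the 8, against 1452 of all genes, had an unadjusted p under 0.05, Ppbp (−0.73, adjusted p = 0.064) and Cxcl1 (0.15, 0.12). DESeq2 called both, with adjusted p of 0.0105 and 0.0074, among 296 calls in 11592 genes. The slopes of the others there were −0.14 for Cxcl3, −0.09 for Cxcl5, −0.09 for Cxcr2, −0.08 for Pf4, −0.06 for Cxcl2 and 0.11 for Cxcr4. In macrophage-like cells none of the 8 passed, against 0.569% of 9658 genes, and DESeq2 called none. There 4 of the 8, against 889 of all genes, had an unadjusted p under 0.05, namely Cxcl5 (−0.59), Ppbp (−0.42), Cxcl2 (−0.10) and Cxcr4 (0.23), and the slopes of Cxcr2 (−0.12), Cxcl3 (−0.11), Pf4 (−0.10) and Cxcl1 (0.05) did not reach it.

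**Figure D5:**
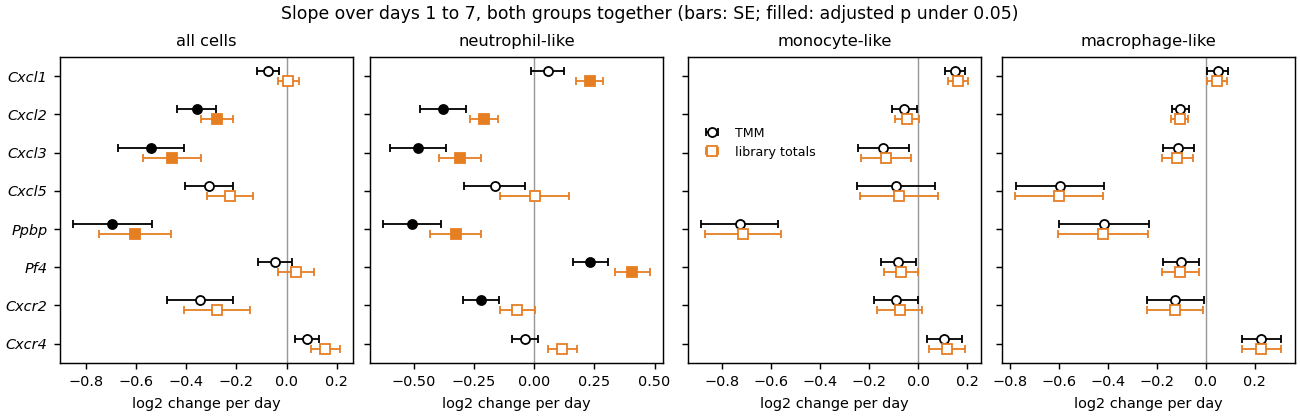
Slope per day (log2, both groups together) of each gene in the sums over all cells and over 3 cell classes, with bars of 1 SE, scaled by TMM and by library totals, filled where the edgeR adjusted p was under 0.05. Filled points for Cxcl2, Cxcl3 and Ppbp lay below 0 in all cells and in neutrophil-like cells under both scalings.

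Whether the slope differed between the groups was tested as an interaction. None of the 8 genes passed, against 0% of 13857 genes over all cells and 0% of 10730 in neutrophil-like cells, and the edgeR adjusted p of each was 1. At an unadjusted p under 0.05 there were 240 and 234 genes in these fits, and DESeq2 called 6 and 3, none of them among the 8. In neutrophil-like cells the slope of the diabetic group was higher than that of the control group for Cxcl1 (0.28 per day, unadjusted p = 0.0293) and Cxcl5 (0.63, 0.0081), the latter from 143 UMIs in that class. The others there were Cxcl3 (0.39), Ppbp (0.34), Cxcl2 (0.30), Pf4 (0.25), Cxcr2 (0.08) and Cxcr4 (−0.04). Over all cells the values were 0.35 for Ppbp, 0.31 for Cxcl3, 0.31 for Cxcl5, 0.14 for Cxcl2, 0.07 for Cxcl1, 0.05 for Cxcr2, 0.01 for Pf4 and −0.04 for Cxcr4.

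Of 45 other genes of the pathway, in 6 lists chosen with earlier results of these data known, most of those called over days in neutrophil-like cells fell. There 40 were tested, of which 32 fell and 3 rose in edgeR, where 2141 of 10126 genes fell and 2261 rose (43.5% in both directions). Under library totals 13 fell and 5 rose, where 513 of 10126 genes fell and 4850 rose. With cells named singly 14 fell and 2 rose, where 443 of 8523 genes fell and 344 rose. Without day 7 none of the 45 passed in these cells, and without day 1 there were 7 that fell, where 372 of 10434 genes did.

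The inducers and co-released cytokines gave 6 of 8 that fell. These were Csf3 (−0.56, edgeR adjusted p = 0.0020), which encodes the growth factor G-CSF, Il1a (−0.66), Ccl4 (−0.46), Tnf (−0.45), Ccl3 (−0.36) and Il1b (−0.36), whereas Il17a, a T cell cytokine gene, rose (0.48, 0.019). T cell-like cells went from 2.42% to 18.3% of cells from day 1 to day 7 in the diabetic group and from 2.33% to 10.7% in the control group, and their part in this slope, as free RNA or doublets, was not tested. The NF-kappaB feedback and mRNA decay genes gave 7 of 7, with Nfkbiz at −0.41, Tnfaip3 at −0.37, Nfkbia at −0.28, Rel at −0.26, Zc3h12a at −0.26, Zfp36 at −0.23 and Relb at −0.19, but 3 of 7 under library totals. Among other attractant receptors and lipid attractant enzymes 8 of 9 fell and Lta4h rose (0.13), while 4 of 9 fell under library totals. Those that fell were the formyl peptide receptor genes Fpr1 (−0.50) and Fpr2 (−0.41), the leukotriene genes Alox5 (−0.41) and Alox5ap (−0.28), and the receptor genes Ptafr (−0.30), Ccr1 (−0.28), C5ar1 (−0.25) and Ltb4r1 (−0.20). The adhesion genes gave 6 of 6, among them Itgal (−0.28), Cd44 (−0.26), Itgam (−0.25), Selplg (−0.21) and Itgb2 (−0.16), and none of them passed under library totals. Receptor signalling genes gave 5 of 8, Arrb2 (−0.23), Rgs18 (−0.23), Gnai2 (−0.16), Grk2 (−0.15) and Prex1 (−0.13), and none of 8 fell under library totals. Of 2 tested genes of the Cxcr4 axis Cd74, which is abundant in antigen-presenting cells, rose (0.34). Dendritic-like cells went from 4.35% to 16.3% of cells from day 1 to day 7 in the diabetic group and from 2.58% to 7.03% in the control group, and their part was likewise not tested.

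Over all cells 16 of the 45 fell and 1 rose, the scavenging receptor gene Ackr3 (0.35), where 917 of 13332 genes fell and 461 rose (10.3% in both directions). Those that fell were Fpr1 (−0.60), Il1a (−0.57), Fpr2 (−0.54), Csf3 (−0.45), Il1b (−0.38), Tnf (−0.35), Il6 (−0.34), Ccl4 (−0.33), Nfkbiz (−0.31), Itgam (−0.28), Ccr1 (−0.28), Ptafr (−0.27), Tnfaip3 (−0.25), Alox5 (−0.23), Alox5ap (−0.23) and Itgb2 (−0.15). Under library totals 13 fell and 4 rose, where 483 of 13332 genes fell and 1900 rose. None passed without day 1 or without day 7. In macrophage-like cells Alox5 alone passed (−0.39, edgeR adjusted p = 0.036), and in monocyte-like cells none did.

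Between the groups, 1 of the 45 genes passed, Fpr2 in monocyte-like cells, against 0.0469% of all genes there. It was higher in the diabetic group by 1.11 (log2, SE 0.16, edgeR adjusted p = 0.042). It did not pass without day 3 (0.085), without day 5 (0.11) or without day 7 (0.73). Nor did it pass with finer clusters or without pairing the libraries of a day, where no gene in monocyte-like cells was called higher in the diabetic group. The shares of the clusters of this class differed between the groups as given above for Cxcl3. None of the inducers and co-released cytokines passed, and the list as a whole was not tested. The median difference of its genes was 0.83 over all cells, 0.97 in neutrophil-like, 0.60 in monocyte-like and 0.64 in macrophage-like cells. For all genes tested it was −0.0041, −0.0066, 0.0012 and −0.0068. These sums come from the same 8 libraries. The largest over all cells was that of Il1a, 1.50 (SE 0.60, edgeR adjusted p = 0.45).

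The genes with the pattern most like each of the 8 were sought over 55 sums by library and cell class, among 7306 genes, by Pearson correlation of log2 levels. The sums share libraries, depth and cell classes, so the coefficients are descriptions. Cxcl2 and Cxcl3 correlated with each other at 0.93. For Cxcl2 the closest other genes were Clec4d (0.96), Ets2 (0.94) and Nlrp3 (0.94), and for Cxcl3 they were Il1a (0.93), Thbs1 (0.93) and Clec4e (0.92). Cxcl1 was closest to Pdpn (0.91), Il10 (0.90) and Sash1 (0.90), and Pf4 to Sash1 (0.91), F13a1 (0.91) and Ctsl (0.90). Pdpn is a monocyte marker used to name that class. Cxcr2 was closest to H2-Q10 (0.93), Amer2 (0.92) and Csf3r (0.92), the last a neutrophil marker used to name the class. The coefficients of Cxcr4 (Fosl2, 0.75), Ppbp (Fcgr1, 0.69) and Cxcl5 (Pdpn, 0.65) were lower.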

How the data were processed

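CD45+ cells of diabetic and control wounds were profiled by single-cell RNA-seq, on the BD Rhapsody system in the study's methods and 10X Genomics in the series text. The authors trimmed reads with fastp (0.20.1), assigned barcodes with UMI-tools and mapped with STAR; the submitters' processing notes name mm9 and the methods Ensembl 92. The authors deposited unnormalized UMI counts for each barcode and gene. Barcodes with more than 200 genes and less than 20% mitochondrial UMIs were taken as cells (35158 of 38959), and mitochondrial genes were left out. Clusters were made with scanpy 1.11.5 and leidenalg 0.10.2 (2000 variable genes without the 8, 10 principal components, 30 neighbours, resolution 0.8) and named from marker lists. No doublet caller was run, and shared barcodes could not be counted, since cell names are serial. Exact Poisson and conditional intervals are at 95%. Sums were tested with edgeR 4.0.16 in R 4.3.3 (TMM, filterByExpr) in classes of at least 20 cells, after a test on simulated data, with DESeq2 1.42.0 as an alternative. All 8 genes were named in every comparison. Pathway genes were named if they passed, with at most 4 others a list, apart from a result that is not reported here. Likeness used log2 of the level plus 10, for genes reaching 50 CPM. The genes and lists were chosen with earlier results of these data known. Pooled mice make p-values measure only the spread between libraries.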

Additional observations from a re-analysis of the deposited data

Results flagged for a closer look

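The 8 genes were also counted in the 3801 barcodes removed by the filter, which no comparison used. Pooled over the 8 libraries, these barcodes held Cxcl2 at 12459 CPM, Cxcl1 at 1926, Pf4 at 949.7, Cxcl3 at 607, Cxcr4 at 268, Ppbp at 78.9, Cxcr2 at 73.8 and Cxcl5 at 11.9. No empty-droplet or other control sample was at hand for this level.

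For each gene the ratio of diabetic to control over all cells lay on opposite sides of 1 on different days, each a ratio of 2 libraries, and the difference between days was not tested. The lowest and the highest ratio were 0.770 on day 5 and 1.39 on day 7 for Cxcl1, 0.773 on day 1 and 2.37 on day 5 for Cxcl2, and 0.663 on day 1 and 5.15 on day 5 for Cxcl3. They were 0.725 on day 5 and 3.93 on day 7 for Cxcl5, 0.297 on day 1 and 2.80 on day 3 for Ppbp, and 0.264 on day 5 and 1.22 on day 3 for Pf4. For the receptors they were 0.614 on day 3 and 7.92 on day 5 for Cxcr2, and 0.628 on day 3 and 1.28 on day 1 for Cxcr4.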

How the results depend on the processing

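Naming each cell singly turned the neutrophil-like slope of Cxcr2 to 0.050 per day, and finer clusters (resolution 1.6) or single naming turned 13 ratios within a day, given as log2, 1 of them under both. In neutrophil-like cells these were Cxcl2 on day 3 (−0.030 under resolution 1.6 and −0.028 named singly), Cxcr2 on day 7 under resolution 1.6 (0.13), and, named singly, Cxcl1 (0.15), Ppbp (0.45) and Cxcr2 (−0.24) on day 5 and Pf4 on day 7 (−0.90). In monocyte-like cells they were Cxcl1 on day 5 under resolution 1.6 (0.0097) and Ppbp on day 5 named singly (−0.32), and in macrophage-like cells, named singly, Cxcl1 (0.039), Cxcl2 (0.034), Ppbp (1.34) and Pf4 (0.068) on day 3 and Pf4 on day 5 (−0.31). The causes were not tested. Counting each ratio once per setting, there were 14 that turned, 201 that moved by less than their interval and 101 that moved by more without turning. These counts leave out scaling, since TMM was not applied to the ratios. The TMM factors of neutrophil-like cells on day 5 were 0.886 (diabetic) and 1.38 (control). Under them the ratios of Cxcl1 and Cxcr4 in these cells on day 5 would turn above 1.

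Counts of all genes called depended on the tool, the filter and the days. Between groups, DESeq2 called 83 over all cells, 55 in neutrophil-like, 74 in monocyte-like and 30 in macrophage-like cells, in place of 0, 2, 5 and 3. Without a filter the counts were 1, 174, 219 and 143. With no replicate block, that is without pairing the libraries of a day, they were 0 in each of the 3 classes. At resolution 1.6 they were 6, 1 and 1, and named singly 7, 2 and 1. Leaving out a day gave 0 to 1, 0 to 4, 0 to 9 and 2 to 17. For slopes, DESeq2 called 2776 over all cells, 296 in monocyte-like and 120 in macrophage-like cells (edgeR 1378, 71 and 55), library totals called 2383 over all cells, no filter gave 411 and 205 in the last 2 classes, and naming singly 787, 175 and 96 in neutrophil-like (4402 by clusters), monocyte-like and macrophage-like cells. Leaving out a day gave 0 to 1682 over all cells and 173 to 4868, 7 to 289 and 24 to 82 in the 3 classes. For differences of slopes DESeq2 called 6 and 3, no filter 22 in neutrophil-like cells, and leaving out a day 0 to 2 there. Keeping cells with at least 500 genes moved none of these counts by over 1.5 times.

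Fits of the 8 genes kept direction and side of the threshold in 678 cases, gained a call in 14, lost one in 22 and turned uncalled in 69. Library totals were added after seeing the data. With 1 library per group and day, no difference within a day could be tested, and macrophage-like cells of day 1 (48 and 58) and monocyte-like cells of control day 7 (61) limit their ratios.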
